A study of Homo sapiens with 6 samples.

Results

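Aminoacyl-tRNA synthetases are the enzymes that load each tRNA with its amino acid, and 36 of their genes were examined in a drug-resistant bladder cancer line and in its parent. The members were chosen by gene name, and all 36 named genes were found among the 24930 genes tested. They are 20 cytosolic and 16 mitochondrial enzymes or enzyme subunits. GARS and KARS encode both forms and were counted as cytosolic. Names follow the deposited table, in which most cytosolic enzymes lack the suffix now in use (WARS is now WARS1).

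The data were 6 whole-transcript arrays of total RNA, 3 from T24/THP and 3 from T24. T24/THP is a multidrug-resistant human bladder cancer line obtained from T24 by repeated 24 h exposures to pirarubicin, an anthracycline, in rising steps (5 ng/ml at first and 1000 ng/ml at last) that took over 6 months, with later doses every 2 to 3 weeks to keep the resistance. T24 is the drug-sensitive parent, cultured alongside over the same period. The arrays of a line are called biological replicates in the labels. The resistant line was raised a single time, so p-values speak only of the spread among these arrays, and the time from the last dose to RNA extraction is not stated.

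Array medians lay between 3.71 and 3.79 log2 units. Background control probe sets set an upper bound of 5.51 in T24/THP and 5.54 in T24 (in each array the brightest of 23 such sets was taken, then averaged by line), and a gene at or under it is described as in the background range. The epithelial keratins KRT7, KRT8 and KRT18 were above it in both lines, while KRT19 and EPCAM were not. All 7 urothelial markers lay in the background range in both lines, as did all 6 leukocyte and all 5 fibroblast markers and 3 of 4 endothelial ones. The exception was CDH5, a cadherin of endothelium, at 13.12 in T24/THP and 12.30 in T24, and its part in the results was not tested.

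As background, each synthetase activates its amino acid with ATP and joins it to the matching tRNA, so the set as a whole feeds every ribosome in the cell. Cytosolic and mitochondrial translation mostly use separate genes, all of them nuclear. A part of the cytosolic enzymes sits in a large multisynthetase complex held together by scaffold proteins, and others act alone. When a tRNA stays uncharged, the kinase GCN2 slows translation and raises the factor ATF4, which in turn induces many cytosolic synthetase genes. WARS is also a classical interferon-gamma target.

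The synthetases moved mostly downward in T24/THP, with WARS and FARSB far from the others. WARS rose 5.76-fold and FARSB was 5.98-fold lower, and no other member differed by 2-fold. Among all genes 6.62% passed the 2-fold minimum with an adjusted p under 0.05 (2.85% higher and 3.77% lower), and among genes at or above the median level 13.0% did (5.55% higher and 7.47% lower). Of the 36 members, 19 fell, 3 rose and 14 did not pass limma's test at an adjusted p of 0.05. Among all 24930 genes, 18.0% fell and 15.1% rose by the same test, or 33.1% in either direction. All 36 members lay at or above the median level of all genes, where 58.9% of genes were called, 33.6% lower and 25.2% higher. Of the members, 61.1% were called, 52.8% lower and 8.33% higher. The median level of the members was 10.12, against 7.34 for genes at or above the median, and shares by level range are given at the end. The median difference of the members was −0.29 on the log2 scale, against −0.05 for genes at or above the median level and 0.01 for all genes. In bulk RNA a lower level per cell and fewer cells that express a gene cannot be told apart.

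**Figure D1:**
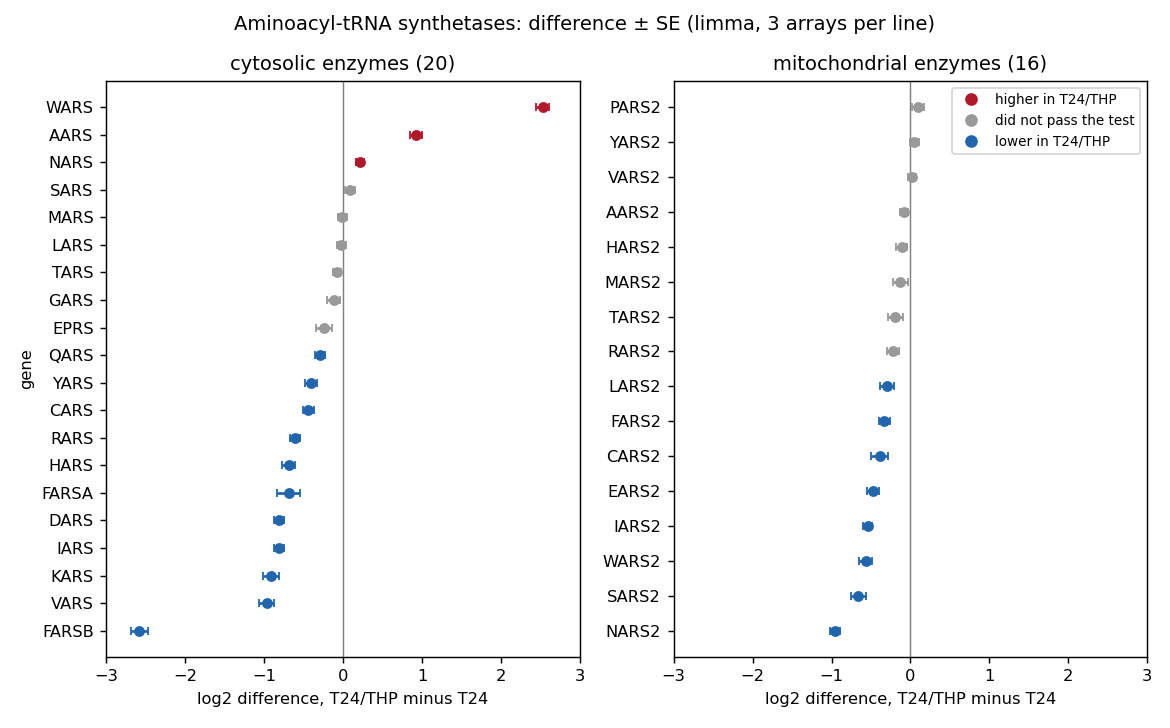
Log2 difference (T24/THP minus T24) with its SE for the 20 cytosolic and 16 mitochondrial enzymes, from limma on 3 arrays per line. WARS at 2.53 and FARSB at −2.58 stand far from the other members, and no mitochondrial enzyme is among the 3 that rose.

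WARS, which charges tRNA with tryptophan, had the largest rise of the set. Its log2 intensity was 12.75, 12.85 and 12.56 in T24/THP, against 10.27, 10.18 and 10.13 in T24. The groups lay more than 2 log2 units apart at their nearest arrays. The difference was 2.53 ± 0.0856 (SE), with limma's adjusted p of 1.77e-06, and it also passed limma's test against a 2-fold difference (adjusted p of 3.42e-05), as did 2.96% of all genes and 5.86% of those at or above the median level. It ranked 99th from the highest of all genes. The transcript cluster TC14001509.hg.1, with 220 probes, lies on chromosome 14 at 100800125 to 100843142 on the minus strand (GRCh37). It covers the whole gene, so transcripts from different starts could not be separated.

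RefSeq lists 2 windows of 250 bases before and 50 after a start for WARS1, from starts 980 bases apart, and the bases before each start are shown because WARS is a known interferon target. Capitals mark the letters TTCNNNGAA, the form of a gamma-activated sequence, and GAAANNGAA, a core of the interferon-stimulated response element, searched on both strands. The downstream start has 1 match to each, which do not overlap and begin at −142 and −55 counted from the start, and the upstream start has none. Among 30 members with a window, 5 held the first motif and 4 the second, against 9.38% and 9.86% of all 27305 genes with windows. A match describes the letters only. Both windows lie on the minus strand in GRCh38.p14, the downstream one at chr14:100375348-100375597 and the upstream one at chr14:100376328-100376577.
WARS1 downstream: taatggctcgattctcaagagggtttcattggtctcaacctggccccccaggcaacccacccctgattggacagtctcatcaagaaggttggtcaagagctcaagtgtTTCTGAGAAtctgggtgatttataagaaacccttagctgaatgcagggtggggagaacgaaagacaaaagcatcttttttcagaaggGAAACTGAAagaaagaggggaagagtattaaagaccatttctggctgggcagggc
WARS1 upstream: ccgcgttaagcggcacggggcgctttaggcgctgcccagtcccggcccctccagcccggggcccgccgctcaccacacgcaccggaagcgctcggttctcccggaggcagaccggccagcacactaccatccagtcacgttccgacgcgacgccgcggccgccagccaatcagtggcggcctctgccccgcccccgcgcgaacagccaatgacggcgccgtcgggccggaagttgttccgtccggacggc

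Of 9 listed genes that interferon-gamma is known to induce, 6 rose in T24/THP and none fell, where 25.2% of genes at or above the median level and 15.1% of all genes rose. The guanylate-binding proteins GBP2 and GBP1 were higher at 2.74 and 2.21. The chemokine CXCL10 was at least 8.86-fold higher, with T24 in the background range. IRF1 and GBP5 also rose, with T24 in the background range, and were at least 1.35-fold and 1.69-fold higher. CIITA, CXCL9 and HLA-DRA lay within background in T24/THP and T24 alike. IDO1, which breaks down tryptophan, rose 5.41-fold, with 8.12, 8.58 and 8.54 in T24/THP and 6.14, 5.86 and 5.94 in T24. SLC7A5, the carrier that brings tryptophan and other large amino acids into the cell, fell, at −1.55, and so did its partner chain SLC3A2, at −0.64. These were the only 3 called of 8 genes of tryptophan uptake and breakdown. By the same test 33.1% of all genes and 58.9% of those at or above the median level were called. Another 4 of the 8 lay within background in T24/THP and T24 alike.

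AARS and NARS, for alanine and asparagine, were the other 2 members that rose. AARS had 14.06, 14.19 and 14.00 in T24/THP, against 13.25, 13.05 and 13.18 in T24. Its difference of 0.92 ± 0.0776 was a 1.90-fold rise, under the 2-fold minimum (adjusted p of 7.62e-05). NARS had 13.53, 13.53 and 13.56 in T24/THP, against 13.30, 13.36 and 13.33 in T24. Its groups lay apart, but the difference was 0.21 ± 0.0521 (adjusted p of 0.0168), and the call was lost without any 1 of the T24/THP arrays, at adjusted p of 0.0529 to 0.0619. AARS lies on chromosome 16 at 70286288 to 70323412 and NARS on chromosome 18 at 55267888 to 55289177 (GRCh37).

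FARSB had the largest fall. It encodes the beta chain of cytosolic phenylalanyl-tRNA synthetase, a tetramer of alpha and beta chains in which FARSA encodes the catalytic alpha chain. FARSB had 10.18, 10.33 and 10.17 in T24/THP, against 12.64, 13.01 and 12.77 in T24. The nearest arrays of the lines lay more than 2 log2 units apart. The difference was −2.58 ± 0.102 (adjusted p of 3.21e-06, and 7.40e-05 against a 2-fold difference). It ranked 33rd from the lowest of all 24930 genes. Its transcript cluster TC02002813.hg.1 lies on chromosome 2 at 223435255 to 223521056 on the minus strand.

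FARSA also fell, but by less. Its intensity was 10.12, 10.07 and 9.72 in T24/THP and 10.39, 10.81 and 10.78 in T24, with the widest spread of any member (SD of 0.22 in T24/THP and 0.24 in T24). The difference was −0.69 ± 0.146 (adjusted p of 0.00793). FARSB minus FARSA, taken within each array, changed by −1.89 log2 units (T24/THP minus T24), and the lines did not overlap. The exact permutation test over 3 against 3 arrays gave p = 0.100, the smallest it allows (adjusted p of 0.150 over 18 gene pairs compared).

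**Figure D2:**
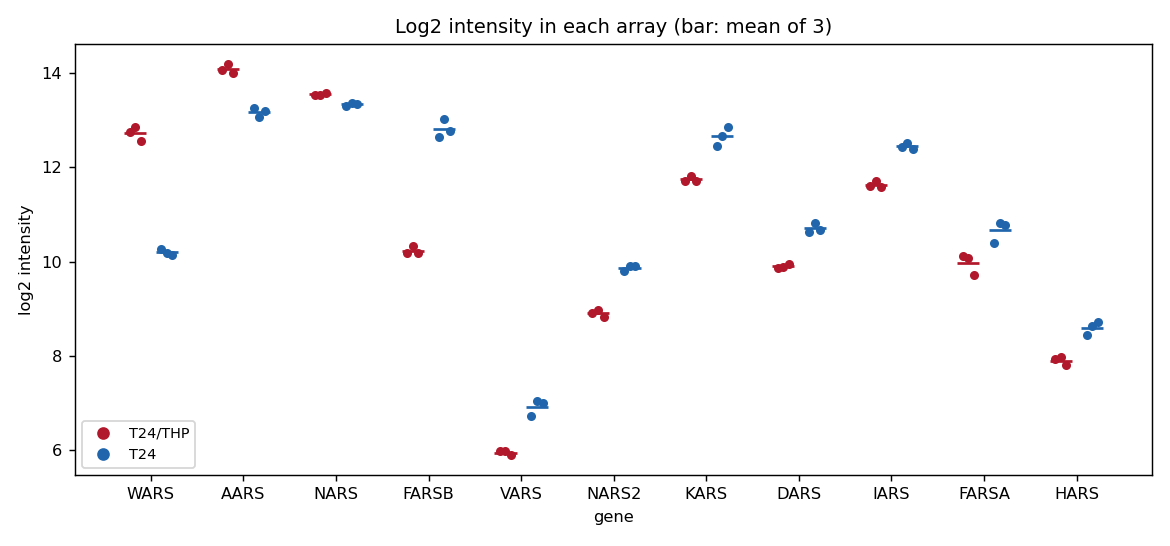
Log2 intensity in each of 3 T24/THP arrays (left of each pair) and 3 T24 arrays (right) for the 3 synthetases that rose and the 8 with the largest falls, with a bar at the mean. WARS and FARSB show the widest gaps, and in all 11 genes the lines do not overlap.

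Of the 20 cytosolic enzymes 11 fell and 3 rose, at a median level of 11.50. Between 10 and 12 log2 units 43.3% of all genes fell and 28.8% rose. Besides FARSB and FARSA, 9 cytosolic enzymes fell, with log2 differences of −0.97 to −0.29. VARS, for valine, had 5.98, 5.99 and 5.90 in T24/THP against 6.72, 7.04 and 7.00 in T24, a difference of −0.97 ± 0.0913. VARS is covered by 7 transcript clusters, 6 of them on alternate haplotypes of chromosome 6, and all were lower in T24/THP, by −0.70 to −0.97. The brightest was used, and the cluster at 31745295 to 31763730 of the main assembly was at −0.83. KARS, for lysine in cytosol and mitochondria, had 11.70, 11.82 and 11.70 in T24/THP against 12.45, 12.66 and 12.85 in T24, a difference of −0.91 ± 0.103. Without T24 replicate 1 both passed the 2-fold minimum, VARS at −1.06 and KARS at −1.02.

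IARS and DARS, for isoleucine and aspartate, fell by the same amount. IARS had 11.60, 11.70 and 11.58 in T24/THP against 12.42, 12.51 and 12.39 in T24, a difference of −0.81 ± 0.0622. DARS had 9.87, 9.88 and 9.94 in T24/THP against 10.63, 10.82 and 10.67 in T24, a difference of −0.81 ± 0.0674. HARS, for histidine, had 7.93, 7.97 and 7.81 in T24/THP against 8.44, 8.63 and 8.71 in T24, a difference of −0.69 ± 0.0849. In these 3 genes every T24/THP array was below every T24 array. By limma the adjusted p was at most 5.26e-04 for VARS, KARS, IARS, DARS and HARS.

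RARS, for arginine, was lower at −0.61, CARS, for cysteine, at −0.44, YARS, for tyrosine, at −0.41 and QARS, for glutamine, at −0.29, the smallest fall among the cytosolic calls (limma's adjusted p of 0.0115). The other 6 cytosolic genes did not pass: EPRS at −0.24, GARS at −0.12, TARS at −0.08, LARS at −0.02, MARS at −0.01 and SARS at 0.09. EPRS encodes a fused enzyme for glutamate and proline, and its SE was 0.100 against 0.0599 or less for TARS, LARS, MARS and SARS. Of all 36 members, 26 had groups that did not overlap, against 45.2% of all genes and 70.7% of genes at or above the median level, and 72.2% is near the last share.

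The enzymes of the multisynthetase complex were split between falls and no call. None of its 8 enzymes rose, 5 fell and 3 did not pass, and their median was −0.45. Among all genes between 10 and 12 log2 units, the range of the complex's median level of 11.83, 43.3% fell and 28.8% rose. KARS, IARS, DARS, RARS and QARS fell, while EPRS, LARS and MARS did not pass. Of the 12 cytosolic enzymes outside the complex, there were 6 falls and 3 rises, and the median was −0.26. Of the 3 scaffold proteins that hold the complex, AIMP2 fell by 1.53, with 7.39, 7.42 and 7.29 in T24/THP and 8.68, 9.02 and 8.98 in T24 (adjusted p of 2.43e-05). AIMP1 fell by 0.25, and EEF1E1 was at −0.08 and did not pass. By structural class, 11 of 19 class I enzymes fell and 1 rose, and 8 of 17 class II enzymes fell and 2 rose.

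All 8 cytosolic genes that are not on a list of known ATF4 targets fell in T24/THP, with a median of −0.75. These were DARS, FARSA, FARSB, HARS, KARS, QARS, RARS and VARS. Of the 12 on that list, 3 rose (WARS, AARS and NARS), 3 fell (IARS, CARS and YARS) and 6 did not pass, with a median of −0.05. At or above the median level of all genes 33.6% of genes fell and 25.2% rose. The lists had median levels of 10.90 (off the ATF4 list) and 11.83 (on it). Between 10 and 12 log2 units 43.3% of all genes fell and 28.8% rose. The list was written from general knowledge of ATF4 targets in mammalian cells, with earlier results of these data known. The difference between the lists was not tested.

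A short sequence known as the CCAAT-enhancer binding protein and ATF response element was searched as TGATGNAA on both strands in the same windows. It was found in 7 of 10 genes of the ATF4 list that have a window, in none of 6 cytosolic genes off the list, and in 1 of 14 mitochondrial genes. It occurs in 4.46% of all 27305 genes and 3.62% of all windows. Since the list holds known ATF4 targets and the element is an ATF response element, the list and the element are not independent. The matches are printed on the gene's strand with 8 bases on either side, the matching letters in capitals, to show how alike they are. In AARS, CARS, IARS, MARS and TARS the same 8 letters occur, and NARS holds them on the opposite strand. Their first base lies at −187 in AARS and between −33 and 15 in the other cytosolic genes, counted from the start. Genes that hold the letters rose (AARS, NARS), fell (CARS, IARS) or did not pass (GARS, MARS, TARS).
AARS, chr16:70289678-70289701, minus strand: tctcgcagTTGCATCAgccaagtt
NARS, chr18:57621807-57621830, minus strand: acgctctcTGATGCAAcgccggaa
CARS, chr11:3057410-3057433, minus strand: ggcggcggTTGCATCAgattctag
IARS, chr9:92293695-92293718, minus strand: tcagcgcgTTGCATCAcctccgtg
GARS, chr7:30594837-30594860, plus strand: cgcggcgaTTTCATCAtgctccga
MARS, chr12:57488056-57488079, plus strand: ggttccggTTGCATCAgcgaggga
TARS, chr5:33440959-33440982, plus strand: cctttcgaTTGCATCAgctggtcc
YARS2, chr12:32756079-32756102, minus strand: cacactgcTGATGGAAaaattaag

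The sequences and coordinates are from RefSeq, GRCh38.p14, and the windows were matched for 30 of 36 members.

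The list of 27 other genes of the ATF4 response held 11 falls and 8 rises around a median of −0.16. Between 6 and 8 log2 units, the range of its median level of 7.47, 33.8% of all genes fell and 26.0% rose, which is near the list's shares. In the list, 5 genes fell and 1 rose past 2-fold. Among genes at or above the median level 7.47% fell and 5.55% rose past it, and among all genes 3.77% and 2.85%. The list's share of such falls was higher than both, which was not tested. SLC7A5, DDIT4, an inhibitor of mTOR signalling, at −1.29, and CHAC1, a glutathione-degrading enzyme, at −1.17 had the largest falls. NUPR1, a stress-induced chromatin protein, rose by 1.35, SLC38A2, a carrier of small neutral amino acids, by 0.85 and ASNS, which makes asparagine, by 0.78. ATF4 itself rose by 0.24 (adjusted p of 0.0476). ASNS makes the amino acid that NARS joins to tRNA, and it stood at 9.06, 9.16 and 9.20 in T24/THP and 8.64, 8.21 and 8.24 in T24.

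**Figure D3:**
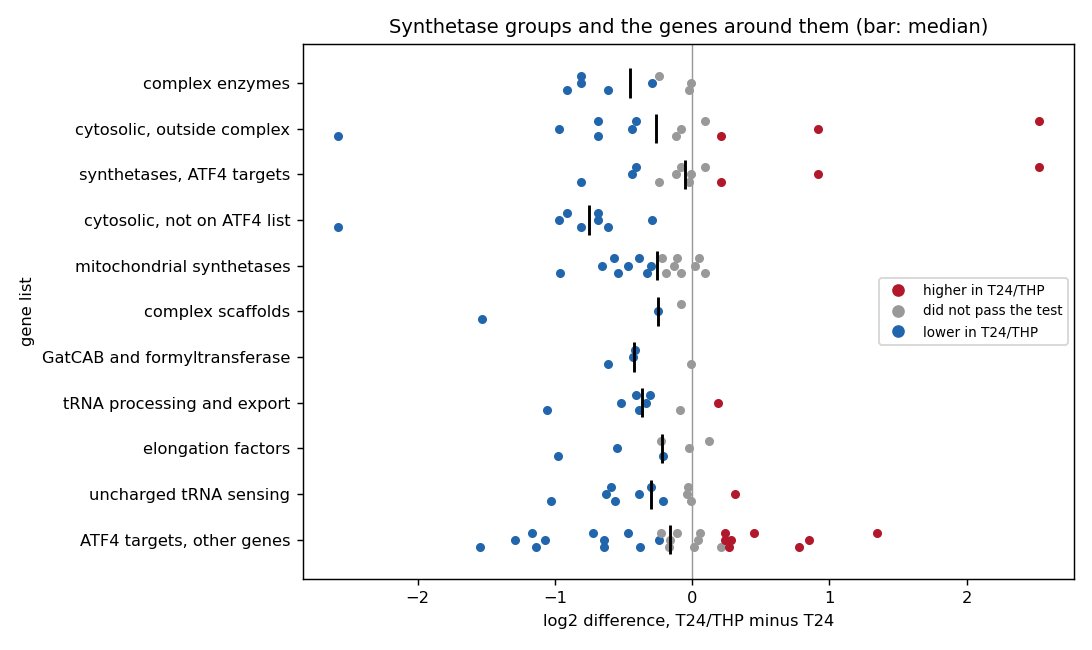
Log2 difference (T24/THP minus T24) of each gene in the synthetase groups and in lists of genes that work with them. Each point is 1 gene, red where it rose, blue where it fell and grey where it did not pass, and the bar is the median, which lies at −0.75 for cytosolic synthetases off the ATF4 list and at −0.05 for those on it.

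The mitochondrial enzymes fell or did not pass, and none rose. There were 8 falls among 16, where 33.6% of genes at or above the median level and 33.8% of genes between 6 and 8 log2 units fell. Rises made up 25.2% and 26% of the same genes, and the lack of rises among the 16 was not tested. Of the 16, 3 did not leave background in T24/THP or T24. Among the 12 above background in both lines there were 6 falls and no rise. The median over all 16 was −0.26, against −0.35 for the cytosolic enzymes. Their differences spanned −0.96 to 0.09, against −2.58 to 2.53 for the cytosolic enzymes, or −0.97 to 0.92 without WARS and FARSB. The groups also differed in level, with medians of 6.76 for the mitochondrial and 11.50 for the cytosolic genes. The mean level over the mitochondrial genes was 6.91 to 6.93 over the T24/THP arrays and 7.12 to 7.29 over the T24 arrays, and over the cytosolic genes 11.03 to 11.12 in T24/THP and 11.33 to 11.39 in T24. Per-array means of both groups were therefore lower in every T24/THP array than in any T24 array.

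NARS2, for asparagine in mitochondria, had the largest fall among them. It had 8.92, 8.97 and 8.82 in T24/THP, against 9.80, 9.90 and 9.91 in T24. The groups lay apart by more than their spread, and the difference was −0.96 ± 0.0658, a 1.95-fold fall (limma's adjusted p of 3.03e-05). WARS2, for tryptophan, fell, at −0.57, as did IARS2, for isoleucine, at −0.54, CARS2 at −0.39, FARS2 at −0.33 and LARS2 at −0.30. SARS2, for serine, passed the test as lower but lay within background in T24/THP and T24 alike, so no size is given. EARS2, for glutamate, was at least 1.11-fold lower, with T24/THP in the background range.

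The calls of LARS2 and CARS2 were the least stable. LARS2 (adjusted p of 0.0347) lost its call with the replicate block, with the level trend removed and without each of 5 arrays, and CARS2 (adjusted p of 0.0245) without T24 replicate 2 or T24/THP replicate 1 or 3. Of the 8 mitochondrial genes that did not pass, RARS2 was nearest, at −0.22 (adjusted p of 0.0644). TARS2, MARS2, HARS2 and AARS2 were at −0.19 to −0.08, and VARS2, YARS2 and PARS2 at 0.02 to 0.09. AARS2 and VARS2 did not leave the background range in either line.

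Enzymes for the same amino acid in cytosol and mitochondria did not always carry the same call. For tryptophan, WARS rose while WARS2 fell, and WARS minus WARS2 was 3.09 log2 units higher in T24/THP. For asparagine, NARS rose and NARS2 fell, a change of 1.17 in their difference. For alanine, AARS rose while AARS2 was at −0.08 in the background range. VARS, HARS, RARS and YARS fell while VARS2, HARS2, RARS2 and YARS2 did not pass, and LARS did not pass while LARS2 fell. SARS did not pass, and SARS2 was lower but within background in both lines. Both enzymes fell for cysteine, phenylalanine and isoleucine, and neither passed for methionine, threonine and proline. For glutamate EARS2 fell, with T24/THP in the background range, and EPRS did not pass. A call in 1 gene of a pair and not in the other does not show that they differ. Of single genes at or above the median level, 70.7% had groups that did not overlap, and the share over other gene pairs was not taken. The within-array differences of the lines did not overlap in 12 of the 18 pairs. Over these pairs, FARSB and FARSA included, the two-sided exact permutation test gave p of 0.100 to 0.700 and adjusted p of 0.150 to 0.700, and this design cannot go below 0.100.

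**Figure D4:**
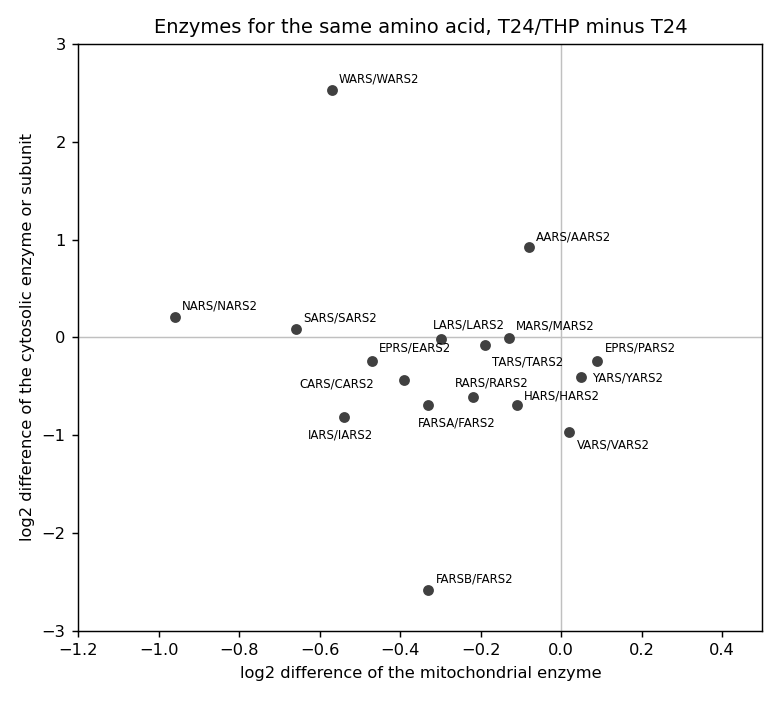
Log2 difference (T24/THP minus T24) of the cytosolic enzyme or subunit against that of the mitochondrial enzyme for the same amino acid, with 1 point per gene pair. EPRS and FARS2 appear more than once because a single gene has several partners. The points of WARS/WARS2, AARS/AARS2, NARS/NARS2 and SARS/SARS2 lie in the corner with a positive cytosolic and a negative mitochondrial difference, and both genes passed the test in WARS/WARS2 and NARS/NARS2. AARS2, SARS2 and VARS2 are in the background range in T24/THP and T24.

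HARS and HARS2 are neighbours that face away from each other on chromosome 5, HARS at 140052758 to 140071609 on the minus strand and HARS2 at 140071011 to 140078890 on the plus strand (GRCh37). Their transcript clusters overlap by 599 bases. HARS fell, at −0.69, while HARS2 was at −0.11 and did not pass, with 7.07, 7.12 and 7.01 in T24/THP and 7.07, 7.17 and 7.28 in T24. The HARS2 arrays of the lines overlap, and those of HARS do not. HARS minus HARS2, taken within arrays, changed by −0.58 (T24/THP minus T24).

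Counts for partners of the synthetases are read against genes between 8 and 10 log2 units, of which 41.1% fell and 25.4% rose, and against all genes at or above the median level (33.6% and 25.2%). Of the 4 genes for the mitochondrial amidotransferase, which makes glutaminyl-tRNA in place of a synthetase, and for the formyltransferase, 3 fell: MTFMT, which formylates the initiator tRNA, at −0.61, QRSL1 at −0.43 and GATB, which was at least 1.08-fold lower with T24/THP in the background range. Of 8 genes of tRNA end processing and export 6 fell and 1 rose. ELAC2, which trims the tRNA 3′ end, was lower at −1.06, HSD17B10, a subunit of mitochondrial RNase P, at −0.52 and the exportin XPO5 at −0.41, while XPOT, the tRNA exportin, rose by 0.19 (adjusted p of 0.0488). Of 6 measured elongation factors 3 fell, EEF1G at −0.98, TUFM at −0.55 and EEF1D at −0.21. EEF1A1, which delivers charged tRNA to the cytosolic ribosome, was at −0.02 and did not pass.

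Of 11 genes that sense uncharged tRNA or act downstream of that sensor, 7 fell and 1 rose. EIF2B3, a subunit of the exchange factor for eIF2, was lower at −1.03, IMPACT, an inhibitor of GCN2, at −0.63 and GCN1, its activator, at −0.59. EIF2AK4, which encodes GCN2, fell by 0.56, with 9.90, 9.98 and 9.90 in T24/THP and 10.42, 10.53 and 10.51 in T24. EIF2B2 rose by 0.31. Of 5 genes that clear mischarged amino acids or stalled peptides from tRNA, 4 fell, led by the D-aminoacyl-tRNA deacylases DTD2 at −0.67 and DTD1 at −0.61, while AARSD1 was lower but within background in both lines. Of 5 genes of selenocysteine tRNA charging, SEPHS1 at −0.70 and EEFSEC at −0.44 fell while SEPSECS rose by 0.36. At the median, the genes that clear tRNA lay at 5.63 and those of selenocysteine charging at 6.69, under the range of 8 to 10. Outside the synthetases, 84 genes of all these lists were measured, with 38 falls, 18 rises and a median of −0.16. Their median level was 7.29, and between 6 and 8 log2 units 33.8% of all genes fell and 26% rose.

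Genes in general leaned lower at higher levels, which touches each count above. Among genes with a mean of 10 to 12 log2 units the median difference was −0.15, with 43.3% lower and 28.8% higher, and among those at 12 and above it was −0.16, with 44.5% lower and 26.7% higher. Of 11 synthetases in the first range 6 fell and 1 rose, with a median of −0.29. Of 8 in the second 3 fell and 2 rose, and their median of −0.10 was not lower than that of all genes there. In each range under 12 the median of the synthetases was lower than that of all genes. Below 6 log2 units 3 of 5 synthetases fell (CARS2, EARS2 and SARS2), where 6.21% of all genes did. Of these, SARS2 did not leave background in T24/THP or T24, and EARS2 did not in T24/THP. That range also holds the genes under the median level of all genes, 4.55, where no synthetase lay. The shares below 6 are therefore not like for like. Between 6 and 8 log2 units 4 of 9 synthetases fell against 33.8% of genes, and between 8 and 10 it was 3 of 3 against 41.1%. No synthetase below 10 log2 units rose, where the share of genes that rose was 8.7% below 6, 26.0% between 6 and 8 and 25.4% between 8 and 10. Subtracting the trend of the difference over level, an alternative added once the values were known, gave a cytosolic median of −0.22 and a mitochondrial one of −0.19, with 10 cytosolic and 7 mitochondrial genes lower.

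**Figure D5:**
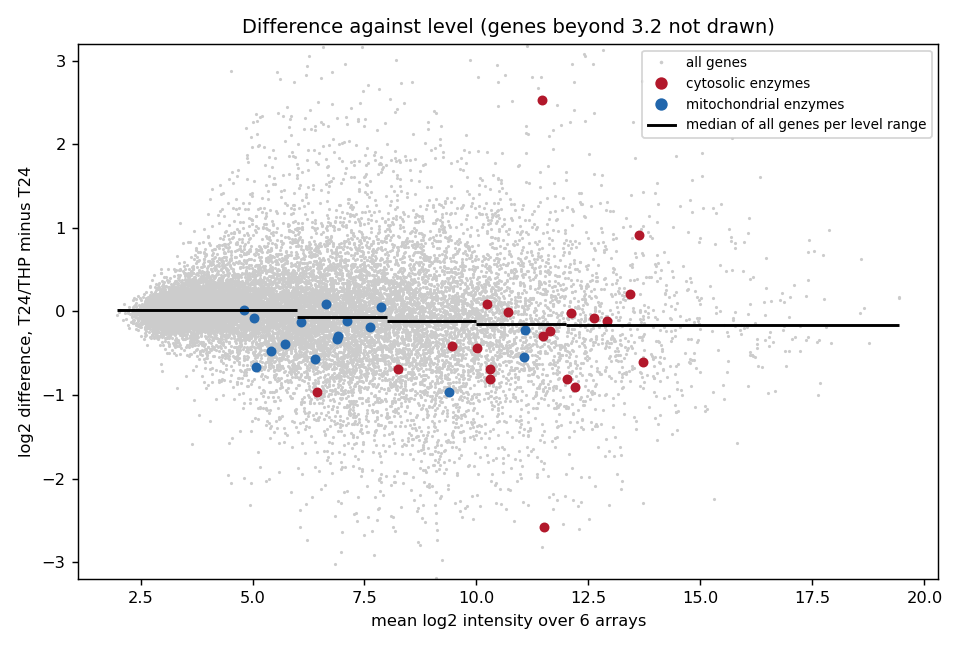
Log2 difference (T24/THP minus T24) against mean log2 intensity over 6 arrays for all genes (grey; 79 genes beyond 3.2 are not drawn), cytosolic synthetases (red) and mitochondrial synthetases (blue), with black bars at the median of all genes in each level range. The bars move from 0.02 below 6 log2 units to −0.16 at 12 and above, and most synthetases lie below 0.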

How the data were processed

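The deposited values are log2 intensities, normalized by the authors, with 1 value per transcript cluster and array. Per the labels' protocols, biotin labelling used Affymetrix WT PLUS reagents. Affymetrix Expression Console was used, per the submitters' processing notes, with neither version nor algorithm stated. Coordinates of genes are those of the annotated table, which names GRCh37.

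Clusters with exactly 1 symbol were kept, symbols were updated through RefSeq (GRCh38.p14, names only), and the brightest of several clusters was used. The test was limma 3.58.1's moderated fit of line alone (R 4.3.3, two-sided), without a filter on low values, and p-values were adjusted by Benjamini-Hochberg over all 24930 genes. A call needs an adjusted p under 0.05, and the 2-fold minimum is a log2 difference of at least 1. The fit was first tested on simulated data. Errors are SD over 3 arrays or limma's SE.

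The members and lists were chosen with earlier results of these data known. Named with per-array values were members past the 2-fold minimum and up to 8 rises and 8 falls, with up to 3 genes per direction from most pathway lists. More were named from the lists of interferon-gamma, the ATF4 response and uncharged tRNA sensing. Same-numbered replicates were not treated as pairs, since their deviations correlated at 0.04, 0.151 and 0.019. Some genes are not reported here.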

Additional observations from a re-analysis of the deposited data

How the results depend on the processing

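Of the 22 synthetases called, 18 kept their call and direction under all 13 alternatives (quantile normalization, an offset of 32 on the linear values, only genes at or above the median level, the mean over transcript clusters, a variance prior with an intensity trend, the replicate block, the level trend removed, and each array left out). No member changed sign with a call. NARS, QARS, CARS2 and LARS2 lost theirs in some, QARS with the level trend removed (−0.14, adjusted p of 0.156). Another 6 members gained a call in some: EPRS, TARS, AARS2, RARS2 and TARS2 as lower, and SARS as higher with the level trend removed (0.21, adjusted p of 0.0309). The replicate block left 21 called, without LARS2, and 7 mitochondrial genes lower; it changed no other member's call, and FARSB and WARS passed under every alternative. The number past the 2-fold minimum, 2, was 2 to 4 with 1 array left out, with VARS and KARS added without T24 replicate 1, and 3 with quantile normalization (VARS, −1.03) and with the level trend removed (AARS, 1.10). With the level trend removed the cytosolic median moved to −0.22. Leaving out 1 array gave 19 to 23 called synthetases, 11 to 12 cytosolic and 6 to 9 mitochondrial genes lower, medians of −0.37 to −0.33 and −0.31 to −0.21, and 43 to 54 called pathway genes, against 56 with all arrays. Limma's test against a 2-fold difference kept 2. Cluster means gave the same calls. Depth is not measured on arrays; signal near the background range limits SARS2, AARS2, VARS2, EARS2 and CARS2.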
